A study of Homo sapiens with 6 samples.

Results

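*FMO2* and the long noncoding RNA gene AL021026.1 are 2 of the 1161 genes in the expression table of this series, and they overlap on opposite strands of human chromosome 1. They were taken from the table by name, as a pair that was nearly absent from proliferating (GFP+CV-) cancer cells and present in dormant (GFP+CV+) cancer cells. The difference between these populations therefore chose them, and it is given here as a description with no test. The study labelled GFP+ MDA-MB-231 cells, a human triple negative breast cancer line, with CellVue Claret (CV), which stains membranes and fades with each division, and injected them into the internal carotid artery of female C.B-17 SCID mice aged 6 to 8 weeks. At day 28 the cells that had lost the dye (proliferating) and those that had kept it (cell cycle-inactive, called dormant by the study) were sorted from dissociated brains. Both populations carried GFP, received the same dye and grew in the same host, and were separated by the dye signal. Each of the 6 libraries, 3 per population, held the cells of a pool of 9 or 10 mouse brains, and the libraries of both populations with the same replicate number came from the same pool. The model rests on 1 cell line, and the immunodeficient host still had its own brain and myeloid cells.

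*FMO2* encodes flavin-containing monooxygenase 2, an enzyme of the endoplasmic reticulum that uses NADPH and oxygen to oxygenate sulphur and nitrogen atoms of drugs and other foreign compounds. It is best known from the lung, and in most human populations the common form of the gene encodes a shortened protein without activity. Which form MDA-MB-231 cells carry was not analysed here. AL021026.1 is known by its clone name only, and no function is described for it here.

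In the GENCODE 44 annotation of GRCh38, *FMO2* (ENSG00000094963.13 in the table) lies on the plus strand of chromosome 1 from 171185249 to 171212686. AL021026.1 (ENSG00000225243.5) is annotated as a lncRNA on the minus strand from 171199244 to 171227788. The gene bodies overlap over 13443 bases, from 171199244 to 171212686, so that the transcripts of AL021026.1 end inside *FMO2*. The 9-exon transcript of *FMO2* has 5215 exonic bases, of which 1605 are coding, and the 3 annotated transcripts of AL021026.1 cover 796 exonic bases together. In 2 places the exons themselves overlap, and both places are coding sequence of *FMO2*. Exon 5 of *FMO2*, with 143 bases, lies wholly inside the last exon of all 3 AL021026.1 transcripts. The middle exon of 2 of the AL021026.1 transcripts, with 98 bases, lies wholly inside exon 6 of *FMO2*. Together these 241 bases are 4.62% of the exonic bases of *FMO2* and 30.3% of those of AL021026.1.

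**Figure D1:**
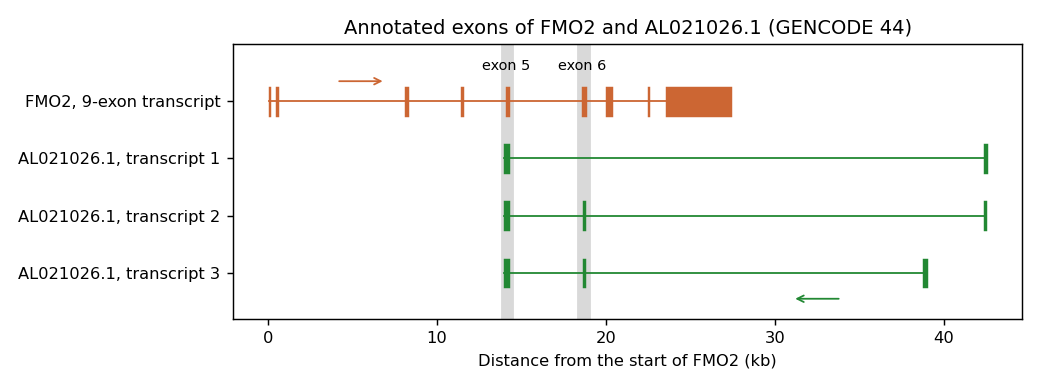
Annotated exons (boxes) and introns (lines) of the 9-exon FMO2 transcript and of the 3 AL021026.1 transcripts, by distance from the start of FMO2 in kb, with arrows for the direction of transcription. The grey bands mark exons 5 and 6 of FMO2, the 2 places where exons of both genes overlap, 143 and 98 bases long.

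These shared bases are shown because a read that lies wholly within them has the same position whichever gene it came from. Both stretches are printed from the GRCh38 reference on the plus strand, 5′ to 3′, the sense strand of *FMO2*, and capitals mark the bases that are exonic in both genes. The first is the last exon of the AL021026.1 transcript of 2 exons, chr1:171199247-171199515, and the second is *FMO2* exon 6, chr1:171203865-171204064.
AL021026.1 last exon: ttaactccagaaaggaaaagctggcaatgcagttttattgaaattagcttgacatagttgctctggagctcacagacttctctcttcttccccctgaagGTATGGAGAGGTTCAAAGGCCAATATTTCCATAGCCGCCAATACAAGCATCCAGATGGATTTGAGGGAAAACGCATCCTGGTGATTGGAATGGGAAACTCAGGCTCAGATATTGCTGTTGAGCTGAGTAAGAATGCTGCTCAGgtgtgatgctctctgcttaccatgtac
FMO2 exon 6: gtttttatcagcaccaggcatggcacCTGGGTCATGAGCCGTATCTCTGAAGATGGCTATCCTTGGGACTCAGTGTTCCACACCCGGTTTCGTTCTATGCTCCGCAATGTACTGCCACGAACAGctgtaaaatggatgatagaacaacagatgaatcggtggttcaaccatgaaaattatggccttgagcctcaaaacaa
In the first sequence the capitals stand between ag and gt, the splice signals of *FMO2*, and the 99 lower-case bases before them and 27 after them are intron of *FMO2*. In the second sequence the capitals stand between ac and ct, which on the minus strand read as AG before and GT after the AL021026.1 exon. The splice signals of the noncoding transcript thus lie within a coding exon of *FMO2*. The GC content of the shared bases was 46.2% in the first and 53.1% in the second stretch. The Smart-seq2 protocol used for these libraries does not keep the strand of the RNA. Reads of *FMO2* and of AL021026.1 that lie, with their mates, wholly within the shared bases can therefore not be told apart. Reads that reach beyond these bases may show their gene, but how such reads were counted is not given in the sources used here. The value of each gene is uncertain to that extent.

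*FMO2* was nearly absent from proliferating (GFP+CV-) cells, with estimated counts of 2, 0 and 1 in replicates 1, 2 and 3. In dormant (GFP+CV+) cells its estimated counts were 395, 349.5 and 706.5. The normalized read counts, which are the counts divided by a size factor of each library, were 1.45, 0 and 0.813 in proliferating and 375.6, 336 and 975.2 in dormant cells. The lowest dormant library thus lay far above the highest proliferating library, and dormant replicate 3 stood above the other dormant libraries. The mean was 0.754 ± 0.727 (SD, n = 3) in proliferating and 562.3 ± 358.2 (SD, n = 3) in dormant cells. The counts summed to 3 in proliferating and 1451 in dormant cells. With the summed size factors of each population taken into account, *FMO2* was 607-fold higher in dormant cells, with a 95% exact interval of 207 to 2948 for counting error alone. The few proliferating counts set the size of this ratio, which was 1111 without proliferating replicate 1, where 1 count remained. The dormant mean was 355.8 without dormant replicate 3.

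AL021026.1 showed the same contrast at lower counts. Proliferating replicates 1, 2 and 3 held 0, 0 and 1 estimated counts, and the dormant libraries held 39, 70.5 and 110.5. The normalized read counts were 0, 0 and 0.813 in proliferating cells and 37.1, 67.2 and 151.9 in dormant cells. The populations did not overlap, and dormant replicate 3 was again the highest library. The mean was 0.271 ± 0.469 (SD, n = 3) in proliferating and 85.4 ± 59.6 (SD, n = 3) in dormant cells. The ratio of the summed counts, scaled in the same way by the size factors, was 275, with a 95% exact interval of 48.8 to 10910, since it rests on 1 count in the proliferating cells. It was 168 without proliferating replicate 1. Without proliferating replicate 3 no proliferating count was left, and AL021026.1 was at least 59.8-fold higher against a floor of 3 counts over the group. The dormant mean was 52.1 without dormant replicate 3. The table holds genes that the authors had called between the same libraries. Among its 1161 genes, 49.0% had all dormant libraries above all proliferating libraries, and nothing is read from the separation of this pair. Fewer cells that express a gene and less RNA per cell cannot be told apart in pooled cells.

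**Figure D2:**
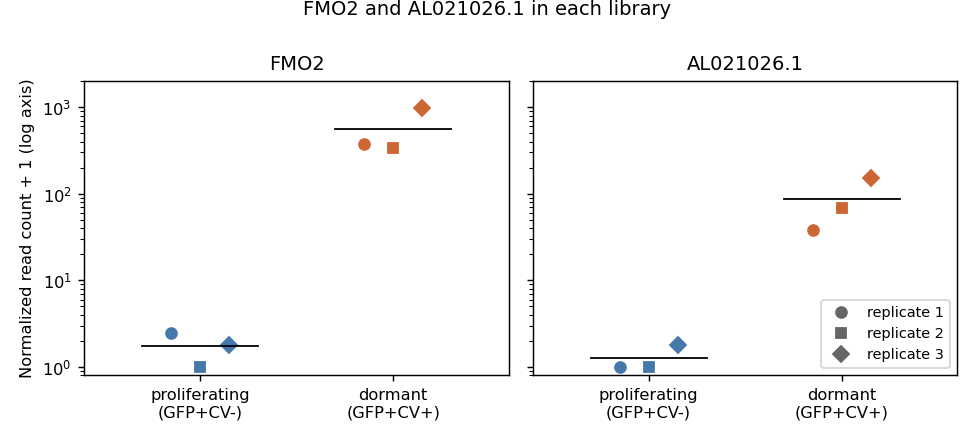
Normalized read count plus 1, on a log axis, of FMO2 (left) and AL021026.1 (right) in the proliferating (GFP+CV-) and dormant (GFP+CV+) libraries, with a marker for each replicate and a line at the mean of each group. FMO2 lies between 336 and 975.2 and AL021026.1 between 37.1 and 151.9 in the dormant libraries, and no proliferating library is above 1.45.

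Per length, with the lengths chosen here, the mean levels of both genes in dormant (GFP+CV+) cells were close. The normalized read count per kilobase of exon was 107.8 ± 68.7 (SD, n = 3) for *FMO2* and 107.3 ± 74.8 (SD, n = 3) for AL021026.1. For *FMO2* the values per kilobase were 72, 64.4 and 187 in dormant replicates 1, 2 and 3. For AL021026.1 they were 46.6, 84.4 and 190.9, so that replicate 3 was the highest for both genes while replicates 1 and 2 stood in opposite order. The lengths are those of the 9-exon transcript and of the joined exons of AL021026.1, which hold 5215 and 796 bases. The joined exons of all *FMO2* transcripts hold 6201 bases, with which the *FMO2* values would be lower. The closeness of the means thus depends on the lengths, and reads from the shared bases can count for either gene.

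The ratio of the genes within a library needs no scaling between libraries. AL021026.1 had 9.87 counts per 100 *FMO2* counts in dormant replicate 1, with a 95% exact (Clopper-Pearson) interval of 6.92 to 13.7. In dormant replicate 2 it had 20.2 per 100, with an interval of 15.2 to 25.9. In dormant replicate 3 it had 15.6 per 100, with an interval of 12.6 to 19.1. The intervals of replicates 1 and 2 did not meet, and that of replicate 3 met both. Between 64.2% and 87.9% of the whole counts from 1 to 50 in a library were even, and whether both mates of a read pair were counted is not given in the sources used here. With the counts halved, the interval was 6.04 to 16 in replicate 1 and 13.5 to 28.9 in replicate 2, and these overlapped. All of these intervals cover counting error only, since reads amplified by PCR without molecular identifiers are not independent molecules. Over the summed counts, 220 against 1451, the ratio was 15.2 per 100, and the mean over the libraries was 15.2 ± 5.16 (SD, n = 3). No ratio is given for proliferating cells, where 3 and 1 counts were found.

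**Figure D3:**
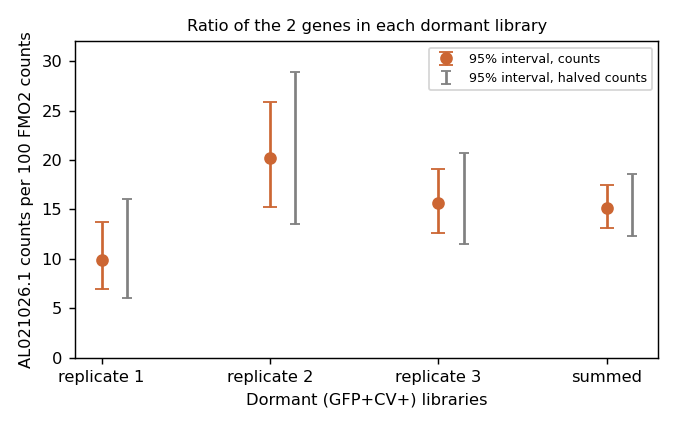
AL021026.1 counts per 100 FMO2 counts in each dormant (GFP+CV+) library and over the summed counts (points), with 95% exact intervals from the counts (orange) and from halved counts (grey). The ratio is lowest in replicate 1, at 9.87, and highest in replicate 2, at 20.2, and the grey intervals of these libraries overlap.

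The density of counts was also set beside the shared bases. If every AL021026.1 count lay on the 241 shared bases, there would be 162, 293 and 459 counts per kilobase there in dormant replicates 1, 2 and 3. *FMO2* had 75.7, 67 and 135 counts per kilobase over its whole transcript in the same libraries. The former values were 2.14, 4.36 and 3.38 times the latter. A read that lies only partly on the shared bases may also be counted, so division by 241 bases may overstate the density. How reads were spread along the transcripts was not analysed here, and what share of the AL021026.1 counts came from *FMO2* RNA was not tested. The decimals of the counts also moved together. Both genes had counts with a 5 after the decimal point in dormant replicates 2 and 3 and whole counts in the other 4 libraries. Of the 1161 listed genes, 10 (0.861%), the pair among them, had a 5 after the point as their whole decimal part in these and no other libraries. The pair had at most 2 counts in any proliferating library, so whole counts there say little. Among the other listed pairs described next, 4 of 36 had equal decimals, within 0.01, in every library. Counted by pair and library, the decimals of these other pairs were equal in 88 of 216 cases (40.7%).

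To place the pair among others of its kind, all listed protein-coding genes that overlap a listed noncoding gene or pseudogene on the opposite strand were collected, which gave 36 other pairs, some of which share a gene. Exons overlapped in 33 of the 36 pairs. In all 36 pairs, both genes lay on the same side, 22 pairs higher and the others lower in dormant (GFP+CV+) cells. Reads from shared exons can count for either gene, and every listed gene was selected on this contrast, so nothing is read from this agreement. Over the dormant libraries the other noncoding genes had between 0.506 and 103 counts per 100 counts of their coding partner, with a median of 13.1, where a ratio could be formed. The 15.2 per 100 of AL021026.1 was thus within their range, and 16 pairs were above it. In the 5 pairs with the most abundant noncoding gene the ratio was nearly equal in both populations. AC006064.4, opposite *GAPDH*, the glycolytic enzyme glyceraldehyde-3-phosphate dehydrogenase, had 27.8 counts per 100 in dormant and 28.2 in proliferating cells, and all of its 422 exonic bases lie in exons of *GAPDH*. AC018761.2, opposite the peroxide-reducing enzyme gene *PRDX2*, had 21.5 per 100 in dormant and 22.1 in proliferating cells. AC011603.2 opposite the tubulin gene *TUBA1B* had 68.9 and 69.4 per 100, AC068733.3 opposite *CAVIN3*, which encodes a protein of the coat of caveolae, had 42.9 and 43.8, and AC010761.1 opposite the ribosomal protein gene *RPL23A* had 49.3 and 50.8. These pairs were named because their noncoding genes had the highest levels.

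The log2 ratio of the means plus 1, dormant over proliferating, was 8.33 for *FMO2* and 6.09 for AL021026.1. This scale understates the change of genes with few counts. With proliferating means below 1 for both, these values and their difference of 2.24 depend on the added 1. Of the 36 other pairs, 4 differed by more, and the largest difference was 3.25. The median difference over the other pairs was 0.21. In 16 of the 36 pairs the genes lay within 0.1 of each other.

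*FMO2* belongs to a cluster of flavin-containing monooxygenase genes on the same strand. *FMO1* begins 35.8 kb beyond its end, and *FMO4* begins 101.5 kb beyond it. The pseudogene *FMO6P* ends 23.7 kb before *FMO2*. None of these is among the 1161 listed genes, and they were not analysed here, so *FMO2* cannot be compared with its own family. The nearest listed gene outside the pair was *PRRX1*, a homeobox transcription factor gene of mesenchymal cells, which ends 0.446 Mb before *FMO2*. Its estimated counts were 174, 50 and 177 in proliferating and 1539, 848 and 1216 in dormant cells, so it was higher in dormant cells too. LINC00626, a long noncoding RNA gene at 2.39 Mb on the same side, went the other way, with 290, 68 and 60 counts in the proliferating libraries and none in any dormant library. On the far side, the nearest listed genes were AL162431.2, *STX6* and *RGL1*, between 9.73 and 12.4 Mb away. They were higher in dormant cells by log2 ratios of 1.84, 1.95 and 1.71.

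Of 132 genes chosen for oxygenases, conjugation enzymes and redox defence, 10 were listed. In edgeR's quasi-likelihood test, adjusted by Benjamini-Hochberg over the listed genes, all 10 were below 0.05. Of these, 1 rose and 9 fell in dormant (GFP+CV+) cells, and the median of their log2 fold changes was -0.68. Of all 1161 listed genes, 99.7% were past this threshold, 49.6% higher and 50.0% lower, because the authors had selected them on the same libraries. The calls are therefore not independent evidence. The median over all listed genes was -0.33, and with libraries scaled to equal totals of the listed genes it was -0.04. With that scaling all 9 lower genes of the list remained below 0 on the log2 scale but 4 of them passed the threshold. No cytochrome P450 gene of the list was in the table. The list was not complete, and the table held the P450 genes *CYP4V2* and *TBXAS1*, which it left out. Their log2 fold changes were 1.70 and -0.67. *GCLM*, the modifier subunit of the enzyme that limits glutathione synthesis, was the gene of the list that rose. Its estimated counts were 635, 302.4 and 362 in proliferating and 1125.4, 977 and 1012.8 in dormant libraries. This was a log2 fold change of 1.66 (SE 0.40, edgeR adjusted p = 0.00681). *XDH*, which encodes xanthine dehydrogenase, fell most. The proliferating libraries held 723, 162 and 226 counts of it and the dormant ones 10, 2 and 2, a log2 fold change of -5.90 (SE 0.99, edgeR adjusted p = 0.00337). The other 8 fell by less than 2-fold. They were the quinone reductase gene *NQO2*, the heme oxygenase gene *HMOX2*, the glutathione transferase gene *GSTM2*, the mitochondrial thioredoxin gene *TXN2*, the peroxiredoxin genes *PRDX1*, *PRDX2* and *PRDX4*, and *CAT*, which encodes catalase. *PRDX4*, with a log2 fold change of -0.93, and *PRDX2*, with -0.48, marked the ends of their range.

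The listed gene whose profile was closest to that of *FMO2* was *SPARCL1*, a secreted matrix protein gene that was on the astrocyte marker list. Likeness was measured over the 6 libraries as the root mean square difference of log2 of the normalized read count plus 1, after removal of each gene's mean. It is a description of genes that were all selected on the same contrast. *SPARCL1* differed by 0.39, with counts of 10, 4 and 5 in proliferating and 997, 1006 and 1657 in dormant libraries. Like *FMO2*, it had similar normalized counts in dormant replicates 1 and 2, 948 and 965.8, and more in replicate 3, 2289. *BGN*, which encodes the proteoglycan biglycan, was also close, at 0.77. *LUM*, the proteoglycan lumican, differed by 0.79 and AC022537.1 by 0.87. AL021026.1 was the 12th closest, at 1.28, and *FMO2* was the 38th closest to AL021026.1. Over the 3 dormant libraries alone AL021026.1 ranked 202nd. The genes closest to AL021026.1 were AC011287.1 at 0.46, *CD4*, a surface receptor of T helper cells and macrophages, at 0.61, and AC007493.1 at 0.63.

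**Figure D4:**
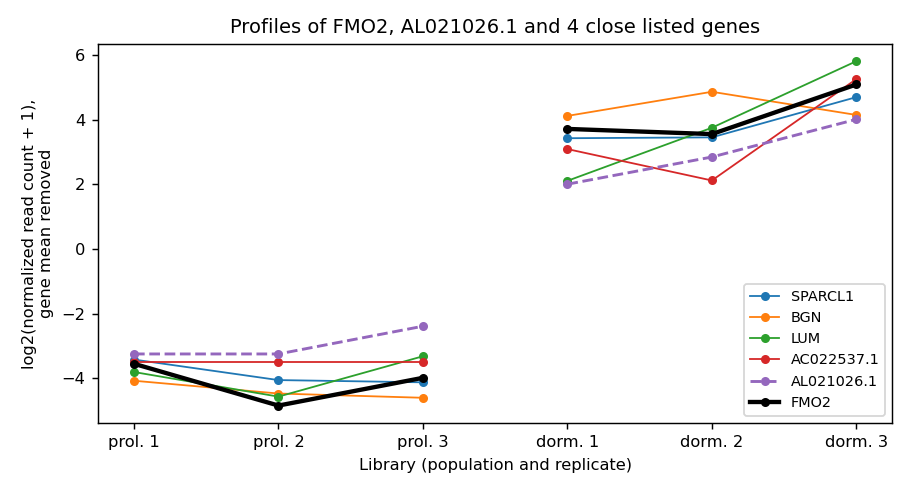
Centred profiles (log2 of normalized read count plus 1, minus the gene's mean over the 6 libraries) of FMO2 (black), AL021026.1 (dashed) and 4 listed genes close to FMO2, in the proliferating (prol.) and dormant (dorm.) libraries. SPARCL1 lies closest to FMO2, and dormant replicate 3 is the highest library for FMO2, SPARCL1, LUM, AC022537.1 and AL021026.1 and not for BGN.

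Dormant replicate 3 was 2.74 times the mean of dormant replicates 1 and 2 for *FMO2* and 2.91 times for AL021026.1. Over the 576 listed genes that were higher in dormant (GFP+CV+) cells, the median of this ratio was 1.39, with quartiles of 1.05 and 1.94, and 86.6% of them lay below *FMO2*. Replicate 3 was the highest dormant library for 65.6% of these genes. This library also had the smallest size factor, 0.724 against 0.927 to 1.38 in the others, and the lowest sum of counts over the listed genes, 7978657 against 10581960 to 17928784. These sums cover the listed genes and are not the depth of the libraries. The part of this library's properties in its high *FMO2* was not tested. Without scaling, the ratio for *FMO2* was 1.90.

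The listed markers of other cell types were, like the pair, higher in dormant cells, but most of the markers looked for were not in the table. Of 49 marker genes of fibroblasts, astrocytes, microglia and macrophages, endothelial cells, mural cells, oligodendrocytes and neurons, 9 were listed, and all 9 were higher in dormant (GFP+CV+) cells (adjusted p under 0.05 by edgeR's quasi-likelihood test, as for 49.6% of listed genes in that direction). This count was also 9 without dormant replicate 3 and with equal totals. Of the fibroblast markers 4 of 8 were listed, of the astrocyte markers 2 of 9, of the microglia and macrophage markers 1 of 10 and of the mural markers 2 of 6. *LUM*, *SPARCL1* and *CD4*, all named above as close in profile to one of the pair, were among them. That closeness includes the contrast on which every listed gene was selected, so nothing is read from it. In dormant replicates 1, 2 and 3 the normalized read counts of *CD4* were 1432, 1039 and 1747, and those of AL021026.1 were 37.1, 67.2 and 151.9. *DCN*, which encodes the fibroblast proteoglycan decorin, was counted 0, 2 and 4 times in the proliferating and 985, 769 and 22 times in the dormant libraries. *LUM*, of the same marker list, was counted 338, 1047 and 3033 times in the dormant libraries, so these fibroblast markers did not share an order of the dormant libraries. *PDGFRB*, a growth factor receptor of mural cells, was counted 643, 264 and 341.3 times in the proliferating and 2688, 4609 and 3442 times in the dormant libraries. The summed normalized read count of the 9 listed markers ranged from 5152 to 8660 in proliferating and from 49311 to 79935 in dormant libraries. Most of it came from the collagen genes *COL1A1* and *COL3A1* of the fibroblast list. Their means were 3350 and 2215 in proliferating and 25555 and 30094 in dormant libraries. None of the 9 was at 0 in all libraries of a population. The endothelial, oligodendrocyte and neuronal markers were not listed and were not analysed here. Of 6 genes typical of MDA-MB-231 cells, the keratin genes *KRT8* and *KRT18* were listed. Both fell, by 0.75 and 0.51 on the log2 scale (adjusted p = 0.00681 and 0.00348 by edgeR's quasi-likelihood test). The same test called 50.0% of all listed genes lower, and the median log2 fold change of all listed genes was -0.33. Neither keratin gene passed the threshold with equal totals. The summed level of *KRT8* and *KRT18* was 211434 to 243206 in proliferating and 118901 to 155798 in dormant libraries, so these cancer cell transcripts remained abundant in every library. The part of other cells or their RNA in the *FMO2* and AL021026.1 counts was not tested.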

How the data were processed

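Paired-end Smart-seq2 reads were trimmed by the authors (Cutadapt) and aligned by STAR 2.7 to human GRCh38.p12 and mouse GRCm38.p6 together. Counting was by Rsubread. Reads that mapped to several places were kept and those that mapped to mouse were dropped. The deposited expected counts are raw, and 43.2% to 49.6% of a library's values are not whole. The deposited normalized read counts are signal values, made by the authors by dividing whole-number counts by 1 DESeq2 size factor per library, and rebuilding them from rounded counts gave a largest difference of 5.3e-05. Columns of the authors' own comparison (a fold ratio, a log2 fold change, its standard error and test statistic as score values, and p-values raw and adjusted) were not used. Only genes called by the authors are in the table, so the depth of whole libraries is unknown.

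The pair and the gene lists were chosen with earlier results of these data known. Levels and ratios of the pair were described without a test. The other genes were tested with edgeR 4.0.16 (quasi-likelihood, two-sided) on rounded counts of all 6 libraries, with the authors' size factors and population as the only term, adjusted over the 1161 listed genes. Simulated counts of 1161 genes gave 97.0% recovery of genes changed 4-fold and 47.8% of genes changed 2-fold, with 4.68% of calls false. The simulation changed 200 genes and left the others unchanged. Its dispersion (spread between replicates) was lower than the common value of 0.182 fitted to the data. Since the listed genes were all selected as different, these rates do not carry over to the data. Per the labels and methods, each replicate number is 1 pool of mice from which both populations were sorted, which pairs the libraries. Across genes, deviations from the group mean correlated between same-numbered libraries at 0.057, -0.018 and 0.0012. The pools were independent experiments, so p-values measure the spread between pools. Alternatives were a replicate block, TMM, equal totals, no scaling, pseudocounts of 1 and 10, limma 3.58.1, DESeq2 1.42.0, a filter of at least 10 counts in 3 libraries and leaving out each library.

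Exons came from GENCODE 44, whose identifiers matched 1156 of 1160 listed identifiers and which is on the build of the authors' alignment but is a later release. Genes were named by a rule that took the pair, the listed members of the lists, the 5 genes closest to *FMO2* and 3 closest to AL021026.1, the 3 nearest listed genes on each side and the 5 opposite-strand pairs with the highest noncoding level. Some of these genes are not reported here. Python 3.11.15, scipy 1.17.1 and matplotlib 3.10.9 were used for intervals and plots.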

Additional observations from a re-analysis of the deposited data

How the results depend on the processing

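The levels of *FMO2* and AL021026.1 in dormant cells moved by less than their SD under each other scaling. With 1 dormant library left out, the *FMO2* level ran from 355.8 to 675.4 and the AL021026.1 level from 52.1 to 109.6. Leaving out 1 of 3 libraries cannot move a mean by as much as the SD, so the SD is no check on these ranges. The ratios to proliferating cells stayed within their counting intervals under each other scaling and with each library left out. The *FMO2* ratio ran from 420 to 1111 with 1 library left out and the AL021026.1 ratio from at least 59.8 to 361. The count of AL021026.1 per 100 *FMO2* counts became 99.8 per kilobase of exon, by construction, since the exons of AL021026.1 are shorter, and was between 13.6 and 17.1 with 1 library left out. It was 14.7 without dormant replicate 3, a library singled out after seeing the data. The rank of AL021026.1 by likeness to *FMO2*, 12 in the main measure, was 47 with a pseudocount of 10 and 202 over the dormant libraries only. It was between 10 and 17 with 1 library left out. The ratio of dormant replicate 3 to replicates 1 and 2 for *FMO2* was 1.90 without scaling. With the replicate block, edgeR called 1097 of the listed genes against 1157 without it, and no call changed among the members of the lists. With libraries scaled to equal totals of the listed genes, 948 were called, 576 higher and 372 lower against 576 and 581, and the median log2 fold change of all listed genes shifted by 0.29. Of the oxygenase, conjugation and redox genes, 5 were then called in place of 10, an alternative chosen after seeing the data. The direction of each list member was kept, and the cause of the lost calls was not tested. DESeq2 called 1161 and limma 1152, and between 1089 and 1135 were called with 1 library left out. The 3 and 1 counts in proliferating cells limit the precision of both ratios, as their intervals show.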
